A study of Rattus norvegicus with 9 samples.

Results

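The genes described here are 34 genes of mitosis and the G2/M transition, measured in the CC-531 rat colon carcinoma model. Members were the rows of the deposited gene table whose symbol was on a fixed list of 34 names. All 34 were found among the 34322 genes of the table, and all 34 were among the 13331 genes that passed the filter on low values. CC-531 is a colon carcinoma line of the rat strain WAG/Rij. Its RNA was sequenced in 9 libraries, 3 for each of 3 sample types: CC-531 cells grown as a 2D culture (passages 5, 8 and 11), CC-531 organoids grown as a 3D culture in matrigel (passages 7, 8 and 9), and ex vivo tumors (1, 2 and 3). The tumors came from the peritoneal cavity of WAG/Rij rats, into which CC-531 cells had been injected at an age of 8 to 10 weeks. No sequenced sample is labelled as treated with a drug, and all share the same parental line. Tumor tissue also holds cells of the host rat, and the labels do not give the animal or the passage behind a tumor.

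A dividing cell accumulates cyclins A and B, which activate CDK1 and drive the entry into mitosis. Polo-like and aurora kinases then build the spindle, the kinetochore and the checkpoint proteins control the attachment of chromosomes, the anaphase promoting complex removes cyclins and securin, and the central spindle and its partners divide the cell. Transcripts of these genes are low in resting cells and rise together in G2 and M, so that their level in bulk RNA follows the share of cycling cells and the RNA per cycling cell. In these bulk libraries, fewer cells in G2 and M and less RNA per such cell cannot be told apart.

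The libraries held 12601774 to 24335921 counts. The colon carcinoma label was checked with 18 epithelial markers, of which 18 were detected at 1 CPM or more in every library of every sample type. CPM here are counts relative to a library size that TMM scaling has corrected for composition. The summed level of the epithelial markers was 5272 to 5633 CPM in cells, 6408 to 9160 CPM in organoids and 6637 to 9476 CPM in ex vivo tumors. As libraries of a type came from different passages or tumors and nothing says whether they were run as separate experiments, p-values measure the spread between these libraries only.

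Promoters of many G2/M genes carry 2 short elements, the cell cycle genes homology region (CHR), bound in human and mouse cells by the MuvB complexes with MYBL2 and FOXM1 or with E2F4, and the CCAAT box, bound by NF-Y. RefSeq promoter windows of the rat build GRCr8, from 250 bases before to 50 bases after the annotated start, were at hand for 30 of the 34 members and not for Ccna2, Aurkb, Tpx2 and Ube2c. Members were counted as genes with a motif in any of their windows, and the shares set beside them were counted by window. A CHR, searched as TTTGAA or TTCGAA on both strands, was present in 21 of 30 members (70.0%). It was present in 14.4% of the 11583 windows of genes tested and 19.7% of all 33469 windows. CCAAT, on both strands, was present in 22 members (73.3%), against 37.3% of the windows of genes tested. Both motifs were present in 16 members (53.3%), against 5.89% of the windows of genes tested. The motifs overlapped by position in Mki67 and in Cdca8. To show where the motifs lie in the genes on which the results turn, the 120 bases before the start are printed 5′ to 3′ on the gene's strand, with CHR and CCAAT matches of either strand in capitals.
Mki67 (chr1:199952594-199952713, minus strand): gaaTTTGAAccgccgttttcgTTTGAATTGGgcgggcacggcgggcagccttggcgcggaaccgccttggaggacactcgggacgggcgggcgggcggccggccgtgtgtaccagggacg
Ccnb1 (chr2:33655226-33655345, minus strand): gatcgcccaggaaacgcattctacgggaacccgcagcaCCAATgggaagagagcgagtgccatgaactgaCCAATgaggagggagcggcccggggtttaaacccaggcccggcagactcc
Cdk1 (chr20:19265173-19265292, plus strand): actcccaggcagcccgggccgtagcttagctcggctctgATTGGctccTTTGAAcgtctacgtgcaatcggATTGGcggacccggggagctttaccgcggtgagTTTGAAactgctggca
Cdc20 (chr5:137255800-137255919, minus strand): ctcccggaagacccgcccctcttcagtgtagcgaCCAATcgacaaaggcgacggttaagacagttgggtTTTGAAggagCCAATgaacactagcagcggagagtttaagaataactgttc
Hmmr (chr10:25665216-25665335, minus strand): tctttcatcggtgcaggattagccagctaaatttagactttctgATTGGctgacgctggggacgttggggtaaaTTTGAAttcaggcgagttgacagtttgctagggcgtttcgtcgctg
Prc1 (chr1:143659361-143659480, plus strand): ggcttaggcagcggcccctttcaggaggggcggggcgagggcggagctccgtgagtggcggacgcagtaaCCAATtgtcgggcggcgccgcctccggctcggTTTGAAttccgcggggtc
Kif23 (chr8:71320585-71320704, minus strand): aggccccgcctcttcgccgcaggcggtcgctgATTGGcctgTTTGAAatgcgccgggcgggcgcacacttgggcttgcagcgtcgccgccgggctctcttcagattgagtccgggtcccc
Anln (chr8:29197514-29197633, minus strand): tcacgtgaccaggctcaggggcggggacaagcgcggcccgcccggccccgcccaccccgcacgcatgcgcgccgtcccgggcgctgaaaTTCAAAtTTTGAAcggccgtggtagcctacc
Birc5 (chr10:103572026-103572145, plus strand): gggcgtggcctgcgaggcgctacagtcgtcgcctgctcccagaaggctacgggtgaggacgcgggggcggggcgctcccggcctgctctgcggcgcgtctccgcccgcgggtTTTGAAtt

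The CHR lay close to the start in most of these genes. In 18 of 30 members a CHR lay within 60 bases before the start or after it, against 4.28% of the windows of genes tested. Prc1, which bundles the microtubules of the central spindle, had a CHR at position -18 and a CCAAT box at -50, counted from the annotated start. Ccnb1 had 2 CCAAT boxes, at -82 and -50, and no CHR of these letters in its window. Cdk1 had a similar pair of CCAAT boxes at -81 and -49 and a CHR at -72 and -16. A pair of CCAAT boxes 30 to 36 bases apart was found in 6 of 30 members and in 2.74% of the windows of genes tested. This distance was chosen after the positions had been seen. Birc5 and Anln each had a CHR near the start (-8, and -31 and -24) and no CCAAT box in the bases shown. Windows of Aurka, Bub1 and Kif2c held neither motif. These matches are descriptions of sequence, and binding was not measured.

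Many of the mitosis and G2/M genes were lower in organoids and in tumors than in the 2D culture, and 0 members were called higher by edgeR, DESeq2 or limma, against 6.44% of all genes tested in organoids and 12.4% in tumors. In organoids 11 of the 34 genes were lower than in cells at an edgeR adjusted p under 0.05, while 4.29% of all genes tested were called lower. The median log2 fold change of the members was -0.94 (range -1.46 to -0.44), which is 1.91-fold lower, and the median of all genes was 0.03. In ex vivo tumors 16 of the 34 genes were lower than in cells, while 6.78% of all genes tested were called lower. Here the median of the members was -0.87 (range -1.53 to -0.08), or 1.83-fold lower, with a median of all genes of 0.00. The estimate was below 0 for 34 of 34 members in both comparisons. At an unadjusted p under 0.05, 29 members were lower in organoids (13.0% of all genes) and 23 in tumors (14.3% of all genes), and 0 were higher (15.4% and 18.5% of all genes).

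The individual libraries separated for fewer members in organoids than in tumors. All 3 organoid libraries lay below all 3 cell libraries for 13 members, while 15.5% of all genes tested had that order. All 3 tumor libraries lay below all cell libraries for 26 members, while 18.8% of all genes tested had that order. Ttk and Tpx2 were called lower in organoids although organoids p7 overlapped cells p11. Every one of the 16 members called in tumors was without overlap.

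**Figure D1:**
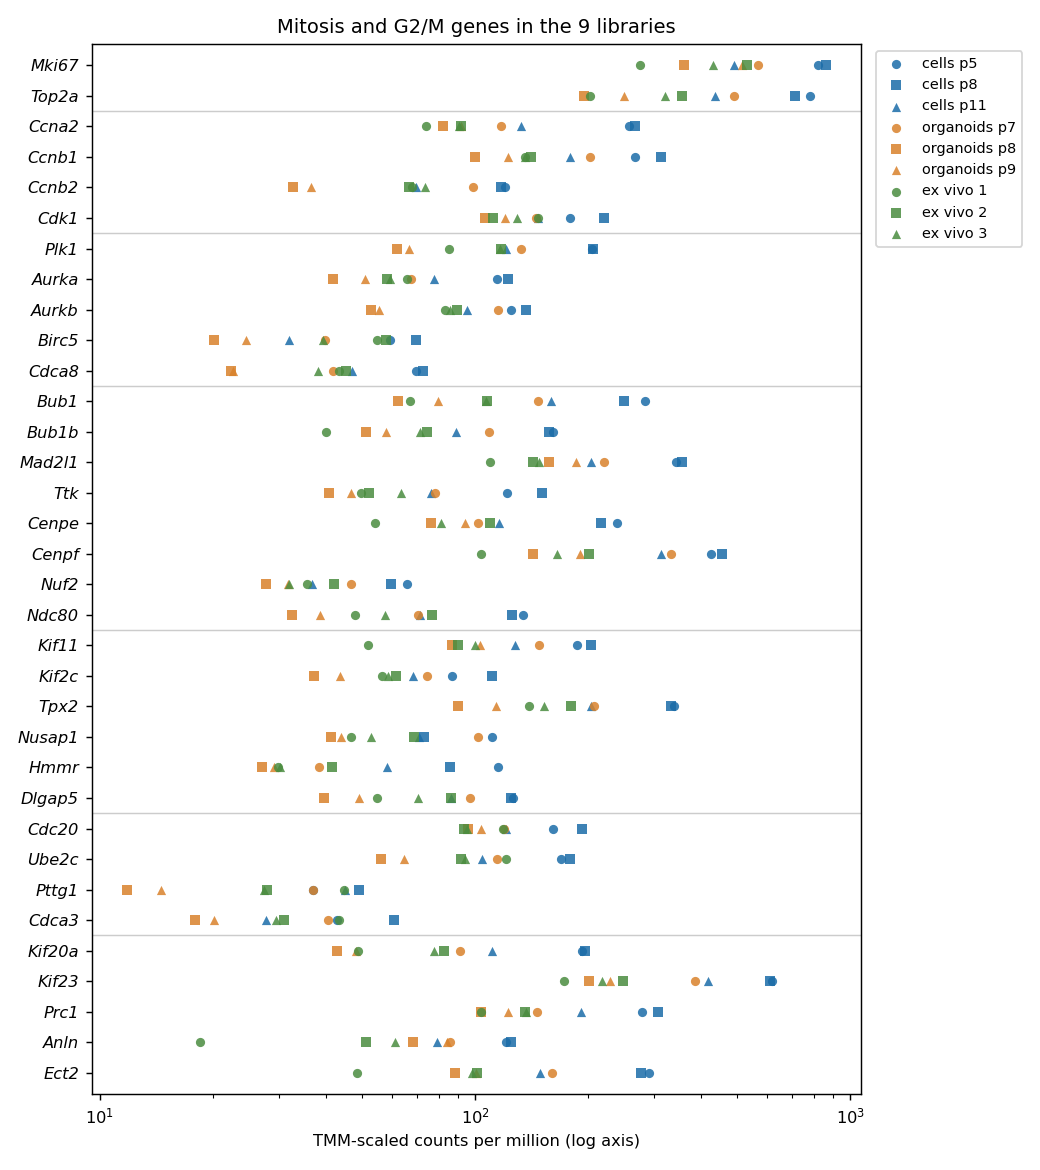
Level of each of the 34 genes in TMM-scaled CPM (log axis) in the 9 libraries, with genes in rows grouped by role. Points are single libraries, coloured by sample type. Cells p5 and p8 lie to the right in most rows, the tumors and the later organoid passages p8 and p9 to the left, and cells p11 and organoids p7 in between.

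These counts depended on single libraries. Only Hmmr of the 11 members called in organoids kept its call in each fit that left out 1 library, and Ccna2, Mad2l1, Hmmr, Kif23, Prc1 and Ect2 (6 of 16) did so in tumors. Without cells p5, cells p8, organoids p8 or organoids p9, 1 member was called lower in organoids, without cells p11 it was 19 and without organoids p7 it was 32. In tumors the count was 6 without cells p5 or cells p8, 7 without ex vivo 1, 11 without ex vivo 2, 12 without ex vivo 3 and 21 without cells p11. The median of the members remained below 0 in each of these fits, from -1.33 to -0.74 in organoids and from -1.08 to -0.73 in tumors.

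Levels also varied between the libraries of each sample type. Relative to the mean of the 3 cell libraries, the median member stood at 0.21 on the log2 scale in cells p5, 0.26 in cells p8 and -0.49 in cells p11. In organoids it stood at -0.36 in p7, -1.35 in p8 and -1.13 in p9. The ex vivo tumors lay at -1.09, -0.73 and -0.79. Organoids p7 thus lay above cells p11, and the other organoids and the tumors below both. The summed level of the 34 genes was 7651, 7797 and 4757 CPM in cells (6735 ± 1715, mean ± SD, n = 3). In organoids it was 4971, 2678 and 3253 CPM (3634 ± 1193, n = 3), and in ex vivo tumors 2842, 3865 and 3549 CPM (3419 ± 524, n = 3).

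**Figure D2:**
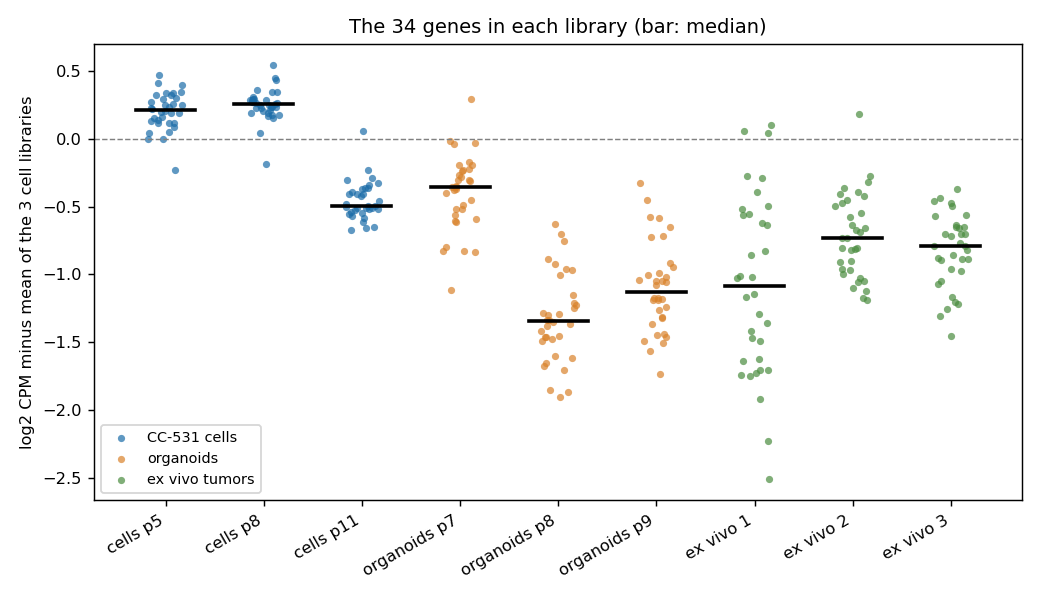
Log2 CPM of each of the 34 genes minus its mean over the 3 cell libraries, by library. Points are genes and bars are medians. The medians run from 0.21 and 0.26 in cells p5 and p8 to -0.49 in cells p11, -0.36 in organoids p7 and between -1.35 and -0.73 in the other 5 libraries.

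Single libraries of the cultures stood at the same end of their type for nearly every member. Cells p11 had the lowest level of the 3 cell libraries for 33 of 34 members, Pttg1 being the exception, and for 35.5% of all genes tested. Organoids p7 had the highest organoid level for 34 of 34 members (46.2% of all genes) and organoids p8 the lowest for 34 of 34 (28.7% of all genes). The log2 difference of p7 from the mean of p8 and p9 ran from 0.17 for Anln to 1.51 for Ccnb2, with a median of 0.88. The median within-type SD of the members was 0.43 in cells and 0.52 in organoids on the log2 scale, against 0.27 and 0.30 for all genes. In ex vivo tumors it was 0.27, against 0.31 for all genes.

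The direction in which ex vivo tumor 1 differed from tumors 2 and 3 was not the same for all members. Its level lay below their mean for 26 members and above it for 8. It had the lowest tumor level for 23 members (45.0% of all genes tested) and the highest for 6 (37.8% of all genes). All 4 genes grouped under the anaphase promoting complex and mitotic exit were above, by 0.33 to 0.69 on the log2 scale. All 5 genes of the central spindle and cytokinesis were below, from -1.59 (Anln) to -0.40 (Prc1), as were all 8 checkpoint and kinetochore genes. The 6 spindle motors and microtubule proteins and the 2 proliferation markers were all below as well. The cyclins and CDK1 were mixed, with 1 above and 3 below, as were the mitotic kinases and chromosomal passengers, with 3 above and 2 below. Organoids p7 and cells p11 showed no such division, as p7 was above p8 and p9 for all 34 genes and p11 below p5 and p8 for all but Pttg1. These differences between single libraries have no test. Whether that of ex vivo 1 follows role, transcript length or RNA quality was not tested.

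**Figure D3:**
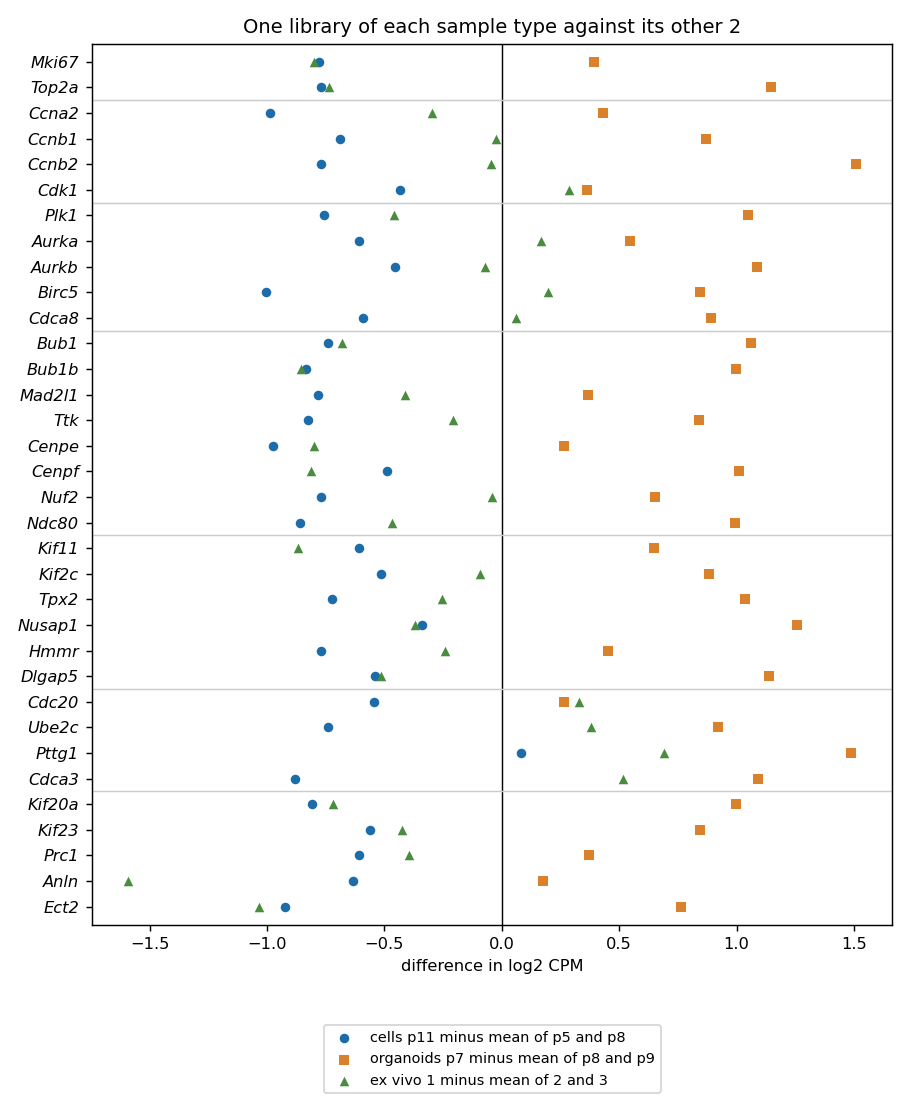
Difference in log2 CPM between 1 library of each sample type and the mean of its other 2, for each of the 34 genes. Cells p11 is below 0 for 33 genes and organoids p7 above 0 for 34. Ex vivo 1 is below 0 for 26 genes and above 0 for 8, among them the 4 grouped under the anaphase promoting complex and mitotic exit.

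The proliferation markers passed the threshold in neither comparison. Mki67 encodes Ki-67, which coats mitotic chromosomes and is used to stain cycling cells. Its level was 822, 863 and 491 CPM in cells p5, p8 and p11, 566, 361 and 516 CPM in the organoids of passages 7, 8 and 9, and 275, 529 and 431 CPM in ex vivo tumors 1, 2 and 3. Cells p11 lay below organoids p7 and p9 and below tumor 2, so the groups overlapped. The log2 fold change was -0.59 (SE 0.31, edgeR adjusted p = 0.232) in organoids and -0.82 (SE 0.31, edgeR adjusted p = 0.0883) in tumors. Top2a, the topoisomerase that untangles sister chromatids, had estimates of -1.05 (edgeR adjusted p = 0.0885) and -1.13 (edgeR adjusted p = 0.0508).

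Among the cyclins and CDK1, Ccna2 was lower in both. Cyclin A2 acts from S phase to early mitosis. It stood at 257, 267 and 132 CPM in cells, 117, 82.4 and 91.5 CPM in organoids and 74.2, 91.6 and 90.7 CPM in ex vivo tumors. Each 3D and tumor library was below each cell library. The log2 fold change was -1.17 (SE 0.27, edgeR adjusted p = 0.0201) in organoids and -1.36 (SE 0.27, edgeR adjusted p = 0.0048) in tumors. Ccnb1, the cyclin that carries CDK1 into mitosis, was at 267, 313 and 179 CPM in cells and at 136, 141 and 136 CPM in tumors, and was just called there (-0.88, edgeR adjusted p = 0.0499). In organoids its estimate of -0.83 did not pass (edgeR adjusted p = 0.0798).

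Cdk1 itself, the catalytic partner of these cyclins, moved least in its group. It was measured at 179, 220 and 147 CPM in cells, 146, 106 and 120 CPM in organoids and 147, 112 and 130 CPM in tumors. Organoids p7 and ex vivo 1 lay just below the lowest cell library, and the other organoids and tumors clearly below it. The estimates were -0.55 (SE 0.21, edgeR adjusted p = 0.118) and -0.49 (SE 0.21, edgeR adjusted p = 0.136). Ccnb2 was called in neither comparison (-0.87 and -0.57).

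Of the 5 mitotic kinases and chromosomal passengers, Aurka and Cdca8 were lower in organoids and Aurka in tumors. The shares of all genes tested that were called lower were 4.29% and 6.78%. Aurka is the kinase of the spindle poles, and its estimates were -0.98 (edgeR adjusted p = 0.0243) and -0.78 (edgeR adjusted p = 0.0389). Cdca8 encodes borealin, which holds the passenger complex together. It was at 69.5, 72.7 and 47.1 CPM in cells, 41.9, 22.4 and 22.7 CPM in organoids and 43.4, 45.4 and 38.1 CPM in tumors. All 3 organoid and all 3 tumor libraries were below the cells. The change was -1.12 (SE 0.28, edgeR adjusted p = 0.0274) in organoids, and the estimate was -0.58 (edgeR adjusted p = 0.170) in tumors.

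Birc5, or survivin, the inhibitor of apoptosis family member of the same complex, had tumor levels within the range of the cells. It was at 59.5, 69.6 and 32.0 CPM in cells, 39.9, 20.1 and 24.5 CPM in organoids, and 54.7, 57.8 and 39.4 CPM in tumors. Its estimate against cells was -0.93 (SE 0.33, edgeR adjusted p = 0.0914) in organoids and -0.08 (SE 0.33, edgeR adjusted p = 0.884) in tumors. The tumor estimate of Birc5 turned to 0.15 without cells p8 and to 0.066 without ex vivo 3. Plk1 and Aurkb, the kinases of mitotic entry and of the passenger complex, were called in neither comparison, at -1.02 and -0.68 in organoids and -0.74 and -0.46 in tumors.

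The 8 checkpoint and kinetochore genes were the largest group, with 3 lower in organoids (Bub1, Ttk and Ndc80) and 6 in tumors (Bub1, Bub1b, Mad2l1, Ttk, Cenpe and Cenpf). Their medians were -0.98 and -1.15. Of all genes tested, 4.29% were lower in organoids and 6.78% in tumors. The tumor call of Mad2l1 held in all 6 fits that left out 1 library. Those of Bub1 and Cenpf held in 3, Ttk and Cenpe in 2, and Bub1b in 1. The organoid calls of Bub1, Ttk and Ndc80 each held in 2. Cenpf, a large protein of the outer kinetochore, was at 426, 454 and 314 CPM in cells, 333, 143 and 191 CPM in organoids and 104, 201 and 165 CPM in tumors. Only organoids p7 reached the cells. The change in tumors was -1.35 (SE 0.34, edgeR adjusted p = 0.0165), and the estimate in organoids was -0.84 (edgeR adjusted p = 0.126).

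Mad2l1, whose product restrains the anaphase promoting complex while chromosomes are unattached, fell in tumors by 1.17 on the log2 scale (SE 0.25, edgeR adjusted p = 0.0074). It was at 343, 357 and 204 CPM in cells, 221, 158 and 186 CPM in organoids and 109, 143 and 148 CPM in tumors. Tumors were thus below all other libraries, and organoids p7 overlapped cells p11. Nuf2, a subunit of the NDC80 complex that holds microtubules, moved least in the group, with 66.0, 59.9 and 36.8 CPM in cells, 46.7, 27.7 and 31.7 CPM in organoids and 35.6, 42.2 and 31.9 CPM in tumors. Its estimates were -0.62 (edgeR adjusted p = 0.164) and -0.57 (edgeR adjusted p = 0.172).

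Hmmr, among the 6 spindle motors and microtubule proteins, was the only member that kept its call in both comparisons whichever library was left out. Its product binds hyaluronan at the cell surface and spindle microtubules inside the cell. The gene was at 115, 85.5 and 58.2 CPM in cells, 38.4, 27.0 and 29.2 CPM in organoids and 29.9, 41.5 and 30.2 CPM in tumors. The lowest cell library exceeded the highest of all organoid and tumor libraries. Hmmr was lower by -1.45 (SE 0.27, edgeR adjusted p = 0.0076) in organoids and -1.35 (SE 0.27, edgeR adjusted p = 0.0051) in tumors. Tpx2, an activator of aurora A, was also lower in organoids (-1.09, edgeR adjusted p = 0.0487), and Kif11, the motor that pushes spindle poles apart, in tumors (-1.10, edgeR adjusted p = 0.0234).

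Nusap1, which bundles spindle microtubules, showed the widest overlap in this group. It was at 111, 73.0 and 71.0 CPM in cells, 102, 41.4 and 43.9 CPM in organoids and 46.7, 68.9 and 53.0 CPM in tumors. Organoids p7 exceeded cells p8 and p11. The estimates were -0.44 (SE 0.34, edgeR adjusted p = 0.426) and -0.60 (SE 0.34, edgeR adjusted p = 0.251). Kif2c and Dlgap5 were called in neither comparison.

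None of the 4 genes grouped under the anaphase promoting complex and mitotic exit passed the edgeR threshold. At an unadjusted p under 0.05, 3 were lower in organoids and 1 in tumors. The 4 are Cdc20, the activator of the complex, Ube2c, its ubiquitin-conjugating enzyme, Pttg1, or securin, and Cdca3, which promotes mitotic entry. None of the 4 is a subunit of the complex. Their estimates ran from -1.05 to -0.57 in organoids and from -0.63 to -0.34 in tumors. Cdca3, with the smallest estimate of the group in tumors, was at 42.8, 60.9 and 27.7 CPM in cells, 40.5, 17.9 and 20.1 CPM in organoids and 43.3, 31.0 and 29.5 CPM in tumors. Organoids and tumors both overlapped the cells. Cdc20 was at 161, 193 and 121 CPM in cells, 120, 95.6 and 104 CPM in organoids and 119, 93.3 and 95.3 CPM in tumors, below the cells throughout but by a small step from cells p11. Its estimates were -0.57 (edgeR adjusted p = 0.108) and -0.63 (edgeR adjusted p = 0.0633). Pttg1 was at 37.0, 49.0 and 45.1 CPM in cells and at 37.0, 11.8 and 14.6 CPM in organoids, so that p7 lay just below the lowest cell library and p8 and p9 far below.

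The 5 central spindle and cytokinesis genes included 3 that were lower in organoids (Kif20a, Kif23 and Prc1) and 5 that were lower in tumors. Their medians were -1.04 and -1.31. Among all genes tested, 4.29% were called lower in organoids and 6.78% in tumors. Differences between role groups were not tested. Ect2, the exchange factor that activates RhoA at the division plane, was at 290, 276 and 149 CPM in cells, 160, 88.7 and 100 CPM in organoids and 48.6, 102 and 98.1 CPM in tumors. Tumors lay below all cell libraries, while organoids p7 overlapped cells p11. In tumors it fell by 1.53 on the log2 scale (SE 0.35, edgeR adjusted p = 0.0108), and in organoids its estimate was -1.04 (edgeR adjusted p = 0.0788).

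Kif20a, Kif23 and Prc1, a pair of kinesins and their microtubule bundler, passed in both comparisons. Kif20a was at 193, 197 and 111 CPM in cells, 91.0, 43.0 and 48.3 CPM in organoids and 48.8, 82.8 and 77.8 CPM in tumors. All 6 organoid and tumor libraries were below the cells. It changed by -1.46 (SE 0.34, edgeR adjusted p = 0.0203) and -1.26 (SE 0.34, edgeR adjusted p = 0.0226). Kif23 was at 619, 610 and 417 CPM in cells, 386, 202 and 229 CPM in organoids and 173, 247 and 218 CPM in tumors, and changed by -1.01 (edgeR adjusted p = 0.0444) and -1.37 (edgeR adjusted p = 0.0062). Its organoid and tumor libraries were all below the cells. Prc1 stood at 279, 307 and 192 CPM in cells, 146, 104 and 123 CPM in organoids and 104, 136 and 137 CPM in tumors, and changed by -1.06 (edgeR adjusted p = 0.0163) and -1.04 (edgeR adjusted p = 0.0089).

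Anln, or anillin, the scaffold of the contractile ring, had its lowest levels in the tumors, as Mad2l1 did. It was at 121, 124 and 79.0 CPM in cells, 85.7, 68.4 and 84.3 CPM in organoids and 18.5, 51.2 and 61.0 CPM in tumors. Organoids overlapped the cells, and each tumor was below each other library. For Anln the estimate in organoids was -0.44 (SE 0.36, edgeR adjusted p = 0.450) and the change in tumors was -1.31 (SE 0.37, edgeR adjusted p = 0.0279). The value of ex vivo 1 rested on 243 counts, and the call in tumors held in 3 of the 6 fits that left out 1 library.

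**Figure D4:**
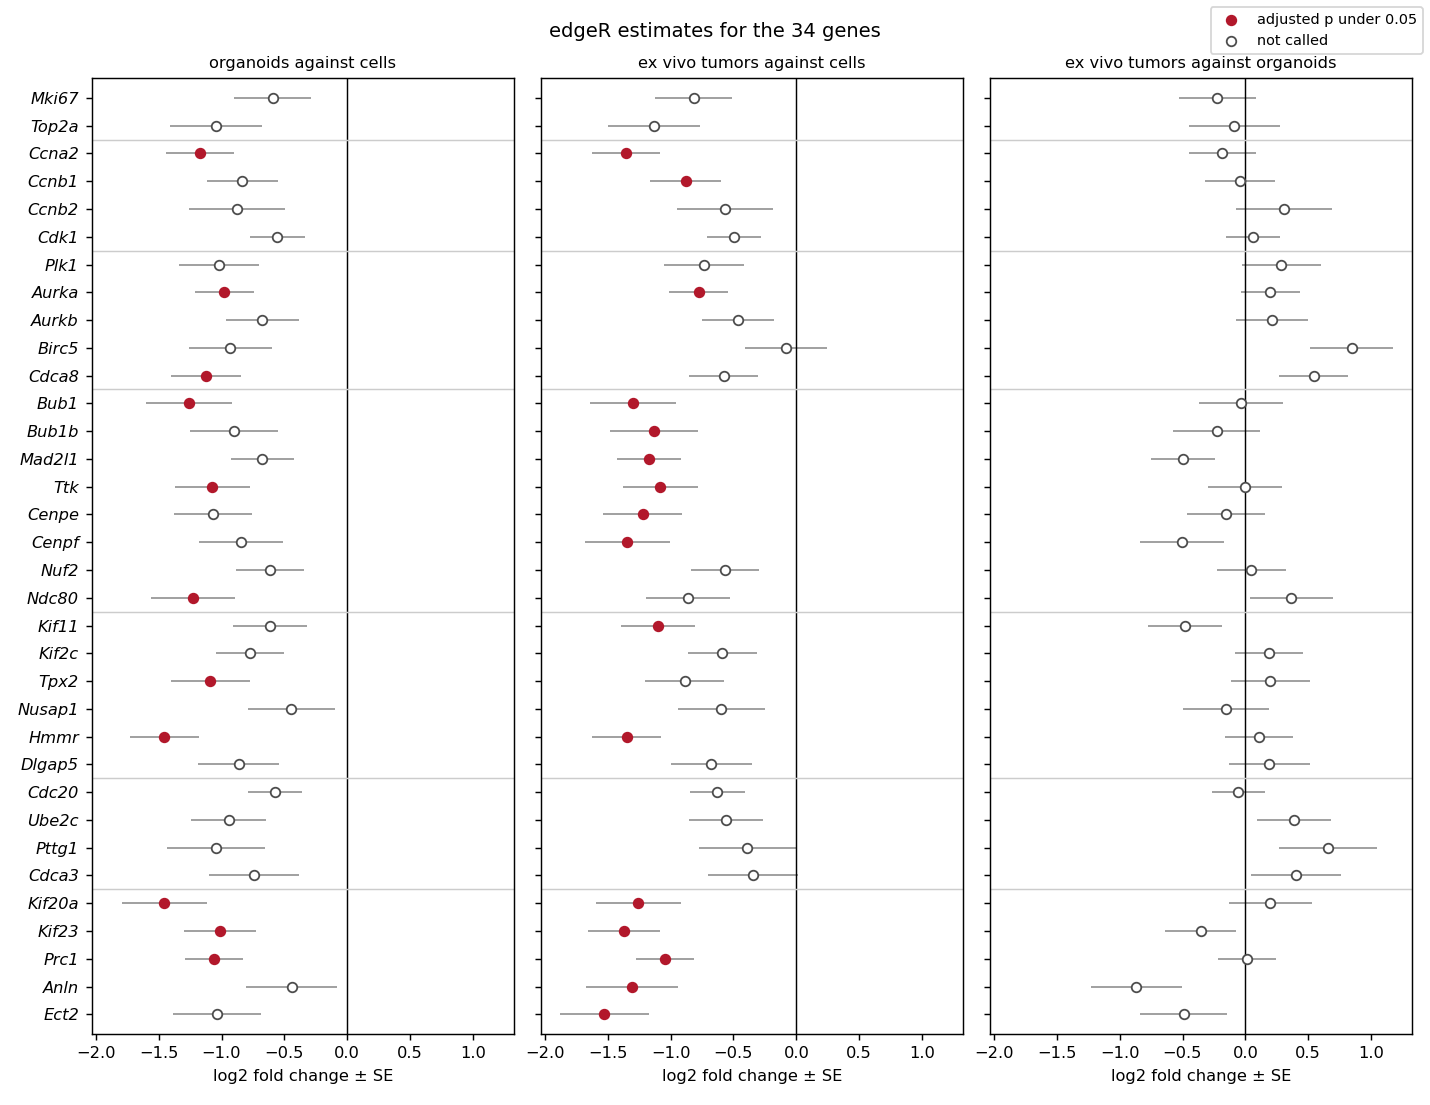
Log2 fold change ± SE of each of the 34 genes in the 3 comparisons, from edgeR. Filled points have an adjusted p under 0.05. There are 11 in organoids against cells, 16 in ex vivo tumors against cells and 0 in ex vivo tumors against organoids, where the estimates run from -0.87 (Anln) to 0.85 (Birc5).

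Ex vivo tumors and organoids were not told apart by these genes. The count of members called by edgeR was 0 lower and 0 higher, while 10.5% of all genes tested were lower and 12.2% higher in tumors. The median of the members was 0.03 and that of all genes 0.03. At an unadjusted p under 0.05, 1 member was lower (Anln) and 1 higher (Birc5), against 18.6% and 19.2% of all genes. DESeq2 called 0, while limma-voom with library weights called 1 lower and 16 higher. All tumor libraries lay below all organoid libraries for 2 members, Mad2l1 and Anln, while 19.7% of all genes had that order. For Anln the estimate was -0.87 (SE 0.36, edgeR adjusted p = 0.105) and for Birc5 0.85 (SE 0.33, edgeR adjusted p = 0.0850), with 95% intervals of -1.66 to -0.07 and 0.12 to 1.57. For Mki67 the interval of the difference was -0.90 to 0.45, so a difference of either sign was within it. Without organoids p7, 7 members were higher in tumors.

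Markers of cells other than carcinoma cells were high in the tumor libraries. Summed levels of 12 fibroblast markers were 4.12 to 6.04 CPM in cells, 6.51 to 15.6 CPM in organoids and 4941 to 10131 CPM in ex vivo tumors, and 5 of these markers had no count in any cell library and 6 had none in any organoid library. For 13 macrophage markers the sums were 37.7 to 58.5, 25.8 to 72.7 and 3727 to 4348 CPM. Endothelial markers (10) summed to 60.7 to 67.1, 27.7 to 43.4 and 250 to 423 CPM, T and NK cell markers (10) to 0.22 to 0.73, 0.67 to 1.00 and 158 to 341 CPM, and B and plasma cell markers (7) to 1.39 to 2.49, 1.65 to 2.75 and 26.5 to 578 CPM. All 12 fibroblast and 13 macrophage markers were detected in every tumor. The median of the members against CC-531 cells was -0.94 in organoids and -0.87 in tumors. What part cells other than carcinoma cells had in the member levels of tumors was not tested.

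Libraries were also scaled on the geometric mean of their epithelial marker counts in place of TMM. Whether this mean follows the epithelial content of a library was not tested. The median of the members was then -1.73 in organoids and -1.59 in tumors, with 34 and 33 members lower, while the median of all genes moved to -0.79 and -0.72. As this scaling shifts every gene of a library alike, the distance of the members from all genes was fixed by its construction. Scaling on housekeeping genes moved the median of all genes to -0.17 and -0.19 and gave 14 and 18 members lower.

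A wider list of 100 other mitosis genes, of which 97 were tested, held more genes called lower than higher in both comparisons. In organoids 13 were lower (13.4%) and 0 higher (median -0.66), beside 4.29% and 6.44% of all genes tested. In tumors 28 were lower (28.9%) and 0 higher (median -0.59), beside 6.78% and 12.4% of all genes. Under settings that kept all libraries of the comparison, 0 to 92 genes of the list were lower in organoids and 0 to 83 in tumors. The organoid count ran from 1 to 57 and the tumor count from 9 to 34 when 1 library was left out, the highest counts being those without organoids p7 and without cells p11, and the lowest those without cells p5, cells p8 or organoids p8 and without cells p8. The largest falls in organoids were in Cdkn3 (-1.73, edgeR adjusted p = 0.0062), Cenpw (-1.46) and Ska1 (-1.28). In tumors they were in Ncapg (-1.71, edgeR adjusted p = 0.0058), a condensin subunit, Knl1 (-1.62), a kinetochore scaffold, and Parpbp (-1.54).

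Between tumors and organoids 2 of the 97 genes of this list were higher and 2 lower, beside 12.2% and 10.5% of all genes tested. Of these 4, Cdkn3 had the largest difference. It encodes a phosphatase that removes the activating phosphate from CDK2 and CDK1. Cdkn3 was at 14.6, 9.68 and 8.81 CPM in cells, 4.07, 3.09 and 2.80 CPM in organoids and 21.6, 15.2 and 15.2 CPM in ex vivo tumors. The 3 sample types did not overlap. It was 2.38 higher in tumors than in organoids on the log2 scale (SE 0.32, edgeR adjusted p = 0.000295) and kept this call, and its fall in organoids, in each of the 6 fits that left out 1 library. Cenpw was also higher in tumors than in organoids (1.26), and Ncapg2 (-0.99) and Kif3b (-0.60) were lower. Ncapg2 kept its call in all 6 of these fits, while Cenpw and Kif3b were each called in 1.

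Differences between the members and the other lists were not tested. Of 22 transcriptional regulators of the G2/M genes, 0 were called in organoids (median -0.15), with 5 lower and 2 higher at an unadjusted p under 0.05 and 0 to 15 lower by edgeR, DESeq2 or limma under the other settings. In tumors 2 were lower and 2 higher (median -0.30), beside 6.78% and 12.4% of all genes, and leaving out 1 library gave 1 to 4 lower and 1 to 2 higher. Foxm1, the transcription factor of the G2/M programme, was at 165, 238 and 146 CPM in cells, 133, 91.2 and 103 CPM in organoids and 76.4, 121 and 131 CPM in tumors. All its organoid and tumor libraries were below the cells, but the estimates of -0.75 (edgeR adjusted p = 0.0928) and -0.74 (edgeR adjusted p = 0.0742) did not pass. In tumors E2f7, a repressor of E2F targets, fell by 1.52 on the log2 scale and Nfyb, a subunit of NF-Y, by 0.63 (called in 1 of 6 fits that left out 1 library), while E2f2 (0.96) and Rbl2 (0.95), a pocket protein of the repressive DREAM complex, rose.

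The number of called genes in other parts of the cell cycle varied with the setting. Of 17 subunits and regulators of the anaphase promoting complex, 1 was lower in organoids (Fzr1, -0.70) and 2 in tumors (Fbxo5, -1.10, and Cdc27, -0.83), with medians of -0.35 and -0.29. Of 30 G1 and S phase genes, 1 was lower (Tk1, -1.38) and 1 higher (Ccnd2, 1.54) in organoids, and 5 were lower in tumors, led by Ccne1 (-1.09), with Pola1 and Rrm2 next. Their medians were -0.44 and -0.22. These G1 and S phase genes were lower at shares of 3.33% in organoids and 16.7% in tumors. Of all genes tested, 4.29% were lower and 6.44% higher in organoids, and 6.78% were lower in tumors. Under settings that kept all libraries of the comparison, 0 to 14 genes of the complex and 0 to 27 G1 and S phase genes were lower in organoids. In tumors these counts ran from 0 to 12 and from 0 to 20. Without organoids p7, 4 regulators, 5 genes of the anaphase promoting complex and 9 G1 and S phase genes were lower in organoids, and without cells p8 there were 0 of each. In tumors the count of G1 and S phase genes ran from 2 without cells p5, cells p8, ex vivo 1 or ex vivo 2 to 7 without cells p11.

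Of 12 cell cycle inhibitors tested, 4 were higher and 0 lower in organoids, beside 6.44% and 4.29% of all genes tested, with a median of 0.60. The 4 were Cdkn1c (2.19), which encodes the CDK inhibitor p57, and the antiproliferative Btg2 (2.06), Btg1 (1.58) and Ccng2 (1.40). Btg2 and Ccng2 kept this call in all 6 fits that left out 1 library, Cdkn1c in 5 and Btg1 in 1. The count of higher inhibitors was 2 without cells p8. Btg2 was at 31.1, 20.8 and 42.1 CPM in cells, 132, 130 and 130 CPM in organoids and 143, 72.8 and 84.5 CPM in tumors. The cells were below every other library. In tumors Cdkn1c (2.41) and Btg2 (1.68) were higher and Gadd45a (-2.37), a stress-induced inhibitor of CDK1, was lower, with a median of 0.03. Cdkn1a, which encodes p21, was at 61.7, 48.1 and 98.0 CPM in cells, 36.3, 259 and 244 CPM in organoids and 77.3, 44.0 and 57.6 CPM in tumors. Organoids p8 and p9 had the highest Cdkn1a levels, and p7 the lowest of all 9. The Cdkn1a estimate in organoids of 1.37 did not pass (edgeR adjusted p = 0.134). A link between Cdkn1a and the members was not tested.

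**Figure D5:**
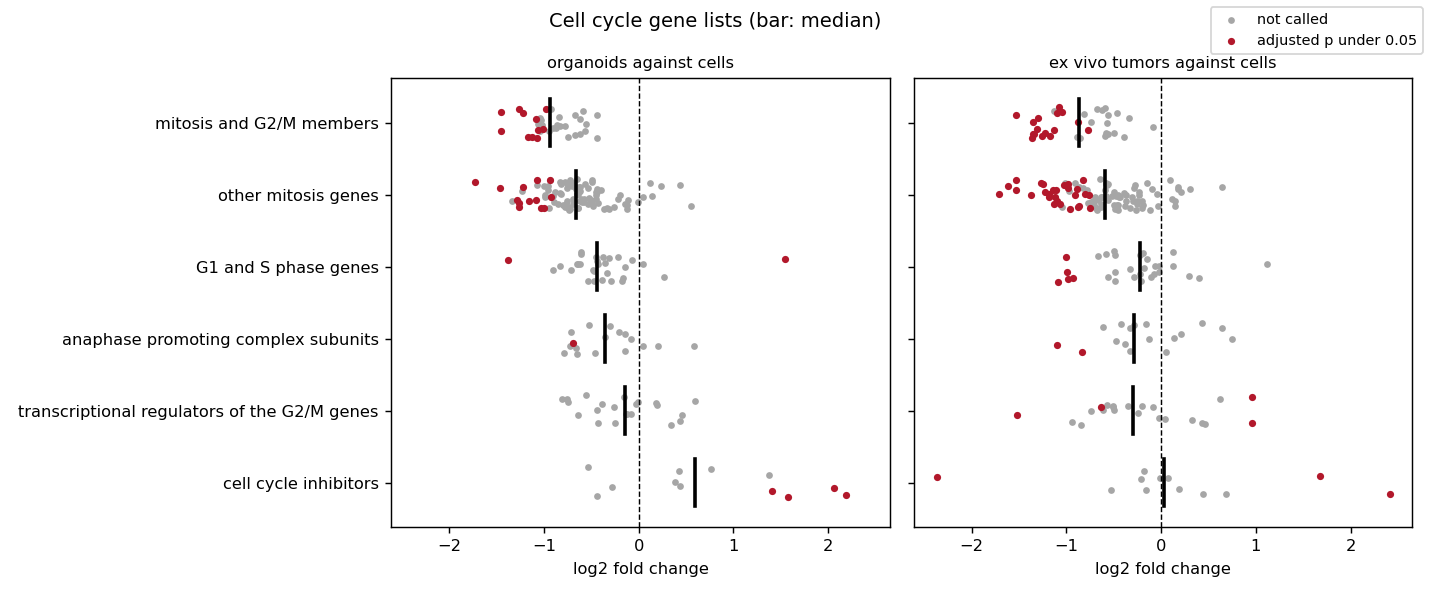
Log2 fold change of the genes of 6 cell cycle lists in organoids and in ex vivo tumors against cells. Points are genes, filled red at an edgeR adjusted p under 0.05, and bars are medians. The medians run from -0.94 for the 34 genes to 0.60 for the inhibitors in organoids, and from -0.87 to 0.03 in tumors.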

How the data were processed

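Messenger RNA libraries were sequenced on an Illumina instrument. The authors trimmed the first 11 bases and bases under a Phred score of 20 with cutadapt 1.18, checked reads with FastQC 0.11.9 and MultiQC 1.9, and aligned them with STAR 2.7.4 to mRatBN7.2, which also gave the counts. The deposited table holds whole-number counts per gene, although its name speaks of normalization. Neither the labels nor the methods name the gene annotation or the strand setting, so reads of overlapping antisense genes cannot be separated.

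The analysis used edgeR 4.0.16 under R 4.3.3. Genes with a mean quantile-normalized log2(count + 1) of at least 4 were kept. Libraries were scaled by TMM, 1 mean per sample type was fitted over all 9 libraries with glmQLFit, and sample types were compared with two-sided quasi-likelihood tests and Benjamini-Hochberg adjustment over the 13331 genes. SE was taken as the size of the log2 estimate over the square root of F. The procedure was tested on simulated counts. The members and the lists were chosen with earlier results of these data known. Values per library are given for Mki67 and, by role, for the called gene with the largest and the gene with the smallest change. Values of Ccnb1, Mad2l1, Birc5, Pttg1, Cdc20, Kif20a, Kif23, Prc1, Cdkn3, Foxm1, Btg2 and Cdkn1a were added after they had been seen. Of the other lists, up to 3 called genes each way are named. Alternatives were limma 3.58.1 (voom with library weights, quantile-normalized log2), DESeq2 1.42.0, a fit of 6 libraries, other filters and scalings, a 2-fold threshold and leaving out each library. Promoter sequences are from RefSeq (GRCr8), matched by symbol. Figures were drawn with matplotlib 3.10.9.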

Additional observations from a re-analysis of the deposited data

How the results depend on the processing

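The number of members called lower in organoids, 11, was 3 in a fit of the 6 libraries compared, 19 with DESeq2 or no filter, 34 with limma-voom and library weights or with epithelial scaling, and 0 against a 2-fold threshold. For ex vivo tumors, 16, it was 32 with limma-voom, 33 with epithelial scaling and 0 against a 2-fold threshold. Epithelial scaling moved the medians to -1.73 and -1.59. Leaving out 1 library gave 1 to 32 members in organoids and 6 to 21 in tumors, with medians of -1.33 to -0.74 and -1.08 to -0.73. Between tumors and organoids limma-voom called 1 member lower and 16 higher, no filter called 1 lower, and leaving out 1 library called 0 to 7 higher. In tumors against cells Birc5 ran from -0.35 to 0.15 over these fits, above 0 without cells p8 (0.15) or ex vivo 3 (0.066). In tumors against organoids Mki67 was 0.018 with limma-voom and ran from -0.45 to 0.013, above 0 without ex vivo 1. The cause of these changes was not tested. No paired analysis was possible because the sample types share fewer than 2 passage numbers. With 3 libraries per type, no batch label and no animal or passage given for tumors, the sample type and any difference in handling cannot be told apart.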
